A study of Mus musculus with 2 samples.

Results

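The genes described here are 8 genes of platelet-derived growth factor (PDGF) signalling and of the recruitment of mural cells to vessels, chosen by symbol from the 31053 genes in the count matrices. They are the ligands Pdgfa, Pdgfb and Pdgfd, the receptors Pdgfra and Pdgfrb, the vessel-stabilising ligand Angpt1, the Notch receptor Notch3 and the G-protein regulator Rgs5. They were read from single-cell RNA counts of mouse hearts depleted of cardiomyocytes and of CD45+ cells, with 1 library from db/db animals that received 1% salt and 1 library from db/+ animals. The db mutation disrupts the leptin receptor; homozygous db/db mice become obese and diabetic, and with salt the series treats them as an HFpEF model, meaning heart failure in which the ejection fraction is preserved, while db/+ mice carry the mutation on 1 chromosome copy and no salt is given in their labels. Genotype and salt differ together, so their parts cannot be told apart. Male hearts were used, 4 per genotype; the labels state neither strain nor age, nor whether hearts were pooled, and each genotype gave 1 library.

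Mural cells are the pericytes of capillaries and the smooth muscle cells of larger vessels. In developing vessels, endothelial cells secrete PDGF-B, which binds PDGF receptor beta (the product of Pdgfrb) on mural progenitors and draws them along the vessel wall; Notch3, receiving ligands from the endothelium, keeps arterial smooth muscle mature. PDGF-A acts through PDGF receptor alpha (the product of Pdgfra), which in the adult heart is known as a fibroblast marker, PDGF-D acts through PDGF receptor beta, and angiopoietin-1 (Angpt1) signals to endothelial cells through Tek. Rgs5 speeds the shut-off of G-protein signalling and is used as a pericyte marker.

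In GRCm38 with GENCODE mouse release 21 the ligand genes lie at chr5:138976014-138997370 (Pdgfa, minus strand), chr15:79995874-80014977 (Pdgfb, minus strand) and chr9:6168584-6378850 (Pdgfd, plus strand). The receptor genes lie at chr5:75152292-75198215 (Pdgfra, plus strand) and chr18:61045150-61085061 (Pdgfrb, plus strand). Angpt1 lies at chr15:42424723-42676977 (minus strand), Notch3 at chr17:32120820-32166852 (minus strand) and Rgs5 at chr1:169655501-169695813 (plus strand).

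The db/db + salt library held 40974634 unique molecular identifiers (UMIs, each 1 captured transcript end) in 4751 barcodes, and the db/+ library 44935235 UMIs in 5676 barcodes. After filters 4094 and 4884 barcodes were left, and 7 barcode sequences occurred in both libraries. Barcodes were placed in classes by UMIs of marker genes that leave out the 8 genes, with at least 4 of 8 markers of a list needed. Endothelial-like barcodes numbered 2643 in db/db + salt and 3154 in db/+, fibroblast-like barcodes 1054 and 1173, pericyte-like barcodes 22 and 31, and smooth muscle-like barcodes 16 and 12. A further 50 and 101 barcodes passed the endothelial and pericyte lists together, and 59 and 61 the endothelial and smooth muscle lists. Levels are UMIs of a gene per 1000000 UMIs of its class (CPM), given with exact Poisson 95% intervals. Ratios between the libraries are either CPM ratios with 95% intervals or, where named so, log2 ratios after adding 10 CPM to each side. All intervals cover counting error only, and with 1 library per group no test between the groups was possible.

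Of all barcodes with mural but not fibroblast markers, 75.0% (67.6 to 81.5) of 160 in db/db + salt and 80.5% (74.8 to 85.5) of 226 in db/+ also carried the endothelial list. These had a median of 14104.5 UMIs in db/db + salt and 14230.5 in db/+, against 3985.5 and 3665.5 in mural barcodes without the endothelial list. The mixed barcodes are therefore kept apart below, and single mural classes rest on few barcodes.

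For 5 of the 8 genes the RefSeq promoter table of GRCm38.p6 held an entry. The 250 bases upstream of the start are shown for Rgs5 and Notch3, whose levels were highest in mural barcodes, and for Pdgfra, which marked fibroblast-like barcodes, read 5′ to 3′ on the gene's strand. The windows are chr1:169655251-169655500 on the plus strand for Rgs5, chr17:32166891-32167140 on the minus strand for Notch3 and chr5:75152001-75152250 on the plus strand for Pdgfra.
Rgs5: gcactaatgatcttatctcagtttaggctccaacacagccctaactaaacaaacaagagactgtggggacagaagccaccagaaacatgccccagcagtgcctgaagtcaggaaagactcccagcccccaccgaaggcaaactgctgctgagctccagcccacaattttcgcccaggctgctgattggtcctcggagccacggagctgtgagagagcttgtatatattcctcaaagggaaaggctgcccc
Notch3: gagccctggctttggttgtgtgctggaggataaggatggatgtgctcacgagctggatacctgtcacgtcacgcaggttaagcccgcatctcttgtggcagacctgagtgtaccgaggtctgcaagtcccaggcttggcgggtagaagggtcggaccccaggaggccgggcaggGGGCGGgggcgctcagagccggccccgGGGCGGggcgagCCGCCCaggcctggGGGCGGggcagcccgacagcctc
Pdgfra: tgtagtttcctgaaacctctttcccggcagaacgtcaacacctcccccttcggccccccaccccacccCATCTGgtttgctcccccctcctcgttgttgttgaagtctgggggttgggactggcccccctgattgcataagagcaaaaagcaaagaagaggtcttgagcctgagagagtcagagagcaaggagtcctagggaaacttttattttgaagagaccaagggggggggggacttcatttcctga
Capitals mark matches on either strand to any of the motifs searched, and no matches overlapped. The RBPJ site of Notch signalling was searched as TGGGAA. The GC box that binds Sp1 was searched as GGGCGG. The TATA box was searched as TATAAA. The E-box of helix-loop-helix factors was searched as CANNTG, and the CArG box of serum response factor is given by name. Notch3 held 4 GC boxes, Pdgfra held 1 E-box, and Rgs5 held none of these letters. Among all 32851 windows of this length, 32.7% held a GC box, 66.2% an E-box, 21.6% the RBPJ letters, 12.4% the TATA letters and 1.47% a CArG box.

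**Figure D1:**
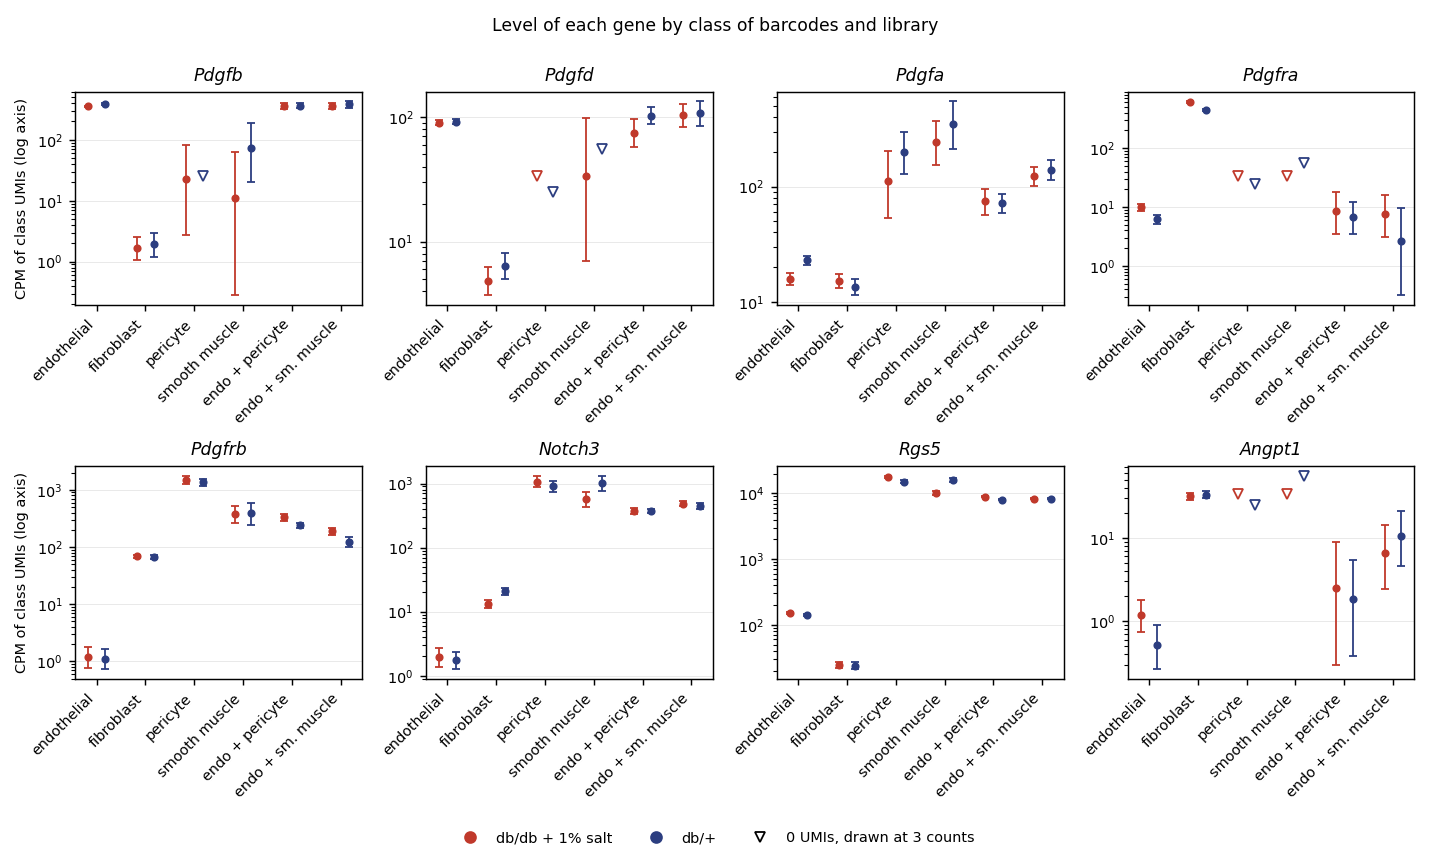
Level of each gene (CPM of the class, log axis) in 6 classes of barcodes, with the db/db + salt library left of the db/+ library and exact Poisson 95% intervals. Open triangles stand for 0 UMIs and are drawn at 3 counts. Pdgfb and Pdgfd were high in endothelial-like and mixed barcodes, Pdgfra in fibroblast-like barcodes, and Pdgfrb, Notch3 and Rgs5 in pericyte-like barcodes.

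Pdgfb, the ligand that recruits pericytes, was carried mostly by endothelial-like barcodes, with 83.8% of its UMIs in db/db + salt and 82.1% in db/+, and differed little between the libraries. Its level there was 355 CPM (346 to 363) in db/db + salt and 387 CPM (379 to 395) in db/+, a CPM ratio of 0.917 (0.888 to 0.946), and 77.0% and 77.8% of barcodes had a UMI at median depths of 5460 and 5390.5 UMIs. In fibroblast-like barcodes, which are deeper at medians of 11979 and 9489 UMIs, the level was 1.70 and 1.93 CPM, and 1.80% and 1.71% of barcodes had a UMI. Pericyte-like barcodes held 2 Pdgfb UMIs in db/db + salt and 0 in db/+, and smooth muscle-like barcodes held 1 and 4. With each barcode thinned to 1500 UMIs, which left out 96 and 173 shallower endothelial-like barcodes, 39.8% and 43.2% of endothelial-like barcodes had a UMI. Without 2 clusters that came almost wholly from db/+ (10 and 543 barcodes led by the interferon genes Ubd and Igtp, and 0 and 18 barcodes), the log2 ratio of Pdgfb was -0.03, against -0.12 with them.

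In barcodes that carried endothelial and mural lists together, Pdgfb was near its endothelial level. It was at 361 CPM in db/db + salt and 365 CPM in db/+ with the pericyte list, and at 357 and 381 CPM with the smooth muscle list. Relative to the endothelial junction gene Cdh5, endothelial-like barcodes held 19.9 and 25.3 Pdgfb UMIs per 100 Cdh5 UMIs, endothelial and pericyte barcodes 25.8 and 30.2, and endothelial and smooth muscle barcodes 34.9 and 40.3. Each of these ratios was lower in db/db + salt than in db/+, beside a higher Cdh5 level: Cdh5 was at 1779 CPM in db/db + salt and 1531 CPM in db/+ in endothelial-like barcodes.

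**Figure D2:**
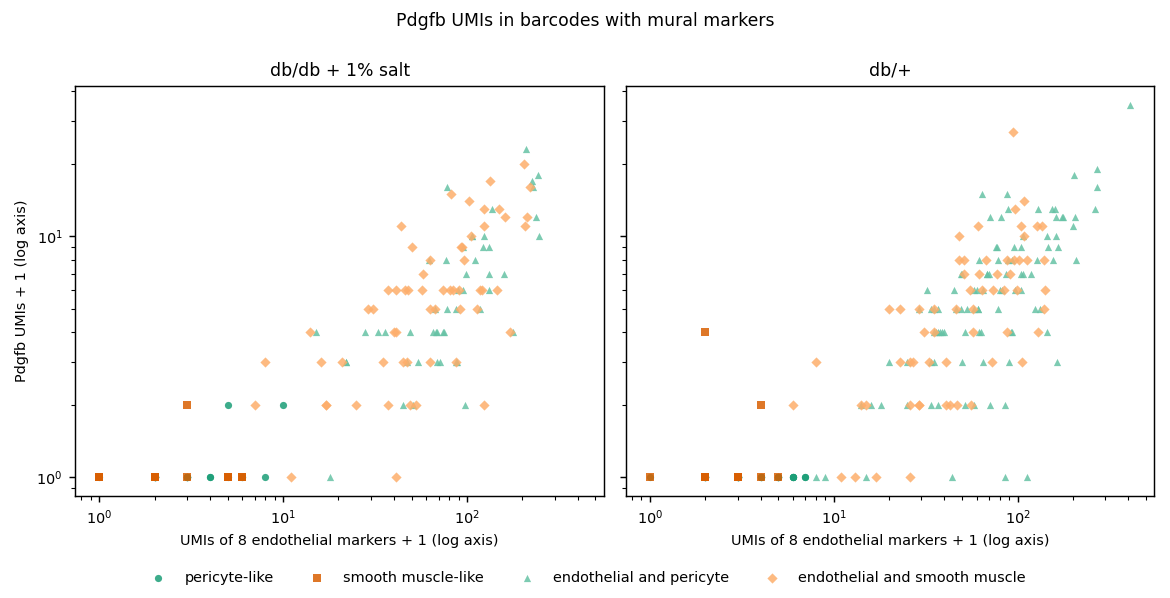
Each point is 1 barcode that passed a mural list: Pdgfb UMIs plus 1 against the summed UMIs of 8 endothelial markers plus 1, both on log axes, db/db + salt on the left and db/+ on the right. Pericyte-like and smooth muscle-like barcodes lie at few endothelial UMIs, a split that the class rule set beforehand. They hold 0 to 3 Pdgfb UMIs, while the mixed barcodes reach 22 Pdgfb UMIs in db/db + salt and 34 in db/+. UMIs are not scaled for depth. Mural barcodes with the endothelial list had medians of 14104.5 and 14230.5 UMIs, against 3985.5 and 3665.5 without it.

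Endothelial-like barcodes were clustered without the 8 genes and without interferon and antigen presentation genes, and subtypes were named from marker lists. Among the named subtypes Pdgfb was highest in arterial barcodes, at 473 CPM (444 to 503) in 291 db/db + salt barcodes and 500.5 CPM (470 to 533) in 303 db/+ barcodes. Clusters that no marker list named held 961 and 1401 barcodes and had 423 and 475 CPM. One of them, 435 and 283 barcodes of low depth, reached 454 CPM (420 to 490.4) and 586 CPM (532 to 644). Capillary barcodes followed with 393 and 422 CPM, then angiogenic barcodes with 363 and 369 CPM. The intervals of capillary and angiogenic barcodes met in db/db + salt but not in db/+. Proliferating barcodes had 256 and 300.0 CPM and venous barcodes 197 and 184 CPM, below the angiogenic level in both libraries. The lowest levels were in a cluster led by the endocardial gene Npr3, which also held the fibroblast genes Dcn and Lum among its leading genes (98.3 and 87.5 CPM), and in lymphatic barcodes (53.2 and 69.5 CPM), whose intervals met. With subtypes taken by their number of markers instead, 38 angiogenic barcodes in db/db + salt stood above arterial ones, at 516 CPM (436 to 607) against 479 CPM (446 to 513), with intervals that met. In db/+ arterial barcodes stayed above, at 499 CPM against 406 CPM in 44 angiogenic barcodes, and venous barcodes had 128 CPM in db/db + salt and 86.8 CPM in db/+. The venous cluster had Cd74 and H2-Eb1 among its leading genes beside the venous marker Nr2f2.

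Pdgfd, which also binds PDGF receptor beta, was at 90.0 CPM (85.8 to 94.3) in db/db + salt and 91.5 CPM (87.6 to 95.4) in db/+ endothelial-like barcodes, a CPM ratio of 0.984 (0.923 to 1.05). Arterial barcodes again stood first among the named subtypes, at 192 CPM (174 to 211) and 191 CPM (172 to 211) against a capillary level of 79.4 and 80.0 CPM, and a cluster led by Scgb3a1 and the Notch target Hey1 had 147 and 167 CPM. Venous barcodes had 55.9 and 58.7 CPM and angiogenic barcodes 53.7 and 66.3 CPM, with intervals that met. Pericyte-like barcodes held 0 Pdgfd UMIs in both libraries, where 3 counts would be 33.5 CPM in db/db + salt and 25.0 CPM in db/+, so a level below these was not detectable.

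Pdgfa, the ligand of PDGF receptor alpha, had another order of levels. It was at 15.8 CPM (14.1 to 17.7) in db/db + salt and 22.9 CPM (20.96 to 24.89) in db/+ endothelial-like barcodes. The 28 and 26 lymphatic barcodes stood highest with 97.5 CPM (67.1 to 137) and 83.4 CPM (58.4 to 116). Venous barcodes followed with 30.8 CPM (25.0 to 37.7) and 59.4 CPM (50.8 to 69.0), and arterial barcodes with 25.5 and 40.9 CPM. Capillary barcodes had 6.06 and 6.98 CPM. In venous barcodes the CPM ratio was 0.520 (0.400 to 0.672) from 95 UMIs in db/db + salt and 169 in db/+, and in arterial barcodes 0.623 (0.434 to 0.888). When all kept barcodes were clustered, an endothelial cluster led by Cd74 and H2-Aa held 0 db/db + salt and 154 db/+ barcodes. Cd74 was also a leading gene of the venous cluster. How far the 2 clusters share barcodes, and any part of this in the venous ratios, was not tested. Where venous barcodes were taken by their number of subtype markers, 29 and 48 barcodes held 13 and 11 Pdgfa UMIs and the direction of the CPM turned. All 13 UMIs in db/db + salt lay in 1 barcode, and the share of barcodes with a UMI was 3.45% in db/db + salt and 12.5% in db/+. The venous CPM was then 83.3 (44.3 to 142) and 32.9. Lymphatic barcodes taken the same way, 23 in each library, had 53.0 CPM (29.7 to 87.4) and 98.9 CPM. They thus stood highest only in db/+, and the intervals met in db/db + salt. Pdgfa was also found in mural barcodes: smooth muscle-like barcodes had 247 CPM (155 to 373) and 353 CPM (212 to 551), and pericyte-like barcodes 112 CPM (53.6 to 206) and 200.3 CPM (128 to 298), from 10 and 24 UMIs.

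**Figure D3:**
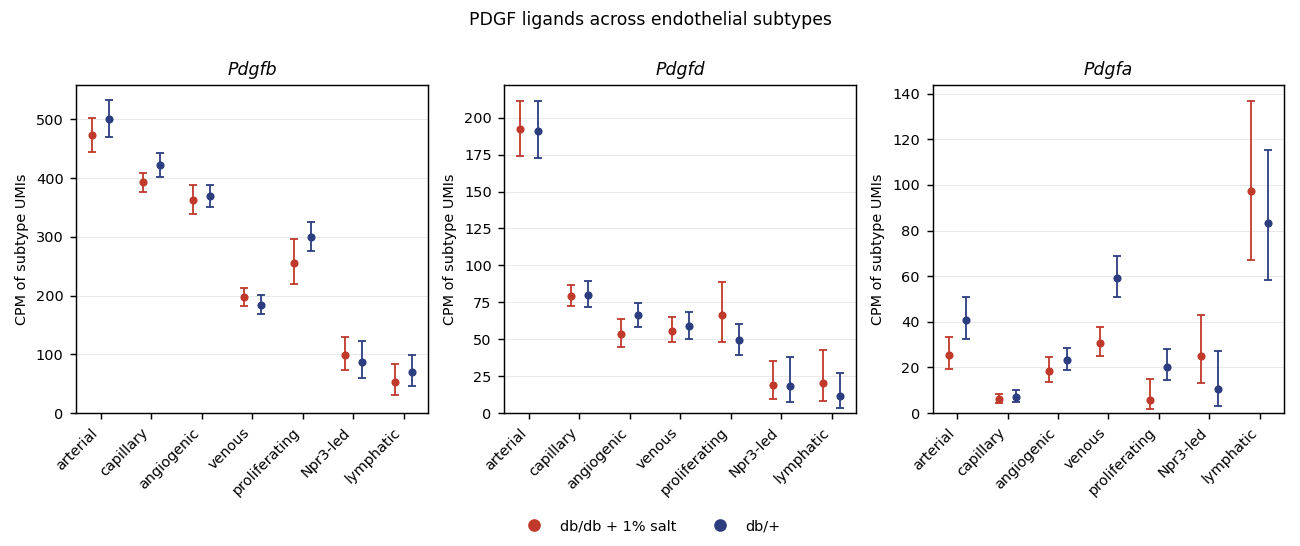
CPM of the 3 PDGF ligands in 7 endothelial subtypes, db/db + salt left of db/+, with exact Poisson 95% intervals. Arterial barcodes had the highest Pdgfb and Pdgfd in both libraries, while lymphatic barcodes had the highest Pdgfa and venous barcodes had 30.8 CPM of Pdgfa in db/db + salt against 59.4 CPM in db/+.

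Among the receptors, Pdgfra marked fibroblast-like barcodes and was higher in db/db + salt. It was at 608 CPM (595 to 622) in db/db + salt and 445 CPM (433 to 457) in db/+, a CPM ratio of 1.37 (1.32 to 1.42) and a log2 ratio of 0.44. A UMI was found in 95.8% and 91.0% of fibroblast-like barcodes, and in 56.9% (53.8 to 59.9) and 47.3% (44.4 to 50.2) when each was thinned to 1500 UMIs, which left out 11 and 21 barcodes. Of 8639 genes with a mean of at least 10 CPM in this class, 118 had a higher log2 ratio. The difference was below the 1.5-fold used here to name a gene as apart. Pericyte-like and smooth muscle-like barcodes held 0 Pdgfra UMIs in both libraries, where 3 counts would be 33.5 and 25.0 CPM in pericyte-like and 33.6 and 55.7 CPM in smooth muscle-like barcodes.

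Pdgfra was higher in db/db + salt in each of the 11 fibroblast-like subclusters with at least 10 barcodes per library, with log2 ratios of 0.26 to 0.70. A proliferating subcluster of 2 and 6 barcodes had 226 and 301 CPM. The largest adventitial subcluster was at 725 CPM (693 to 758) in db/db + salt and 547 CPM (511 to 586) in db/+, and a matrix-activated subcluster led by Dio2 and Cilp at 488 CPM (450.3 to 529) and 307 CPM (278 to 337). Subclusters of 12 and 271 barcodes led by Cxcl9 and of 116 and 12 barcodes led by Idi1 were almost wholly from 1 library, and without them the log2 ratio was 0.47. A subcluster of 65 and 63 barcodes led by Wif1, Prg4 and Clu had the lowest Pdgfra, 188 CPM (161 to 219) and 127 CPM (102 to 156). The same subcluster had the highest Pdgfa among fibroblast-like barcodes, 136 CPM (112 to 163) and 108 CPM (85.5 to 135).

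In endothelial-like barcodes Pdgfra was at 9.89 CPM in db/db + salt and 6.18 CPM in db/+, and 5.49% and 3.96% of barcodes had a UMI. The fibroblast markers summed to 164 and 129 CPM there. Pdgfra stood at 208 and 209 UMIs per 100 UMIs of the collagen gene Col1a1 in these barcodes, against 32.6 and 20.3 in fibroblast-like barcodes. Another fibroblast marker, Pcolce, was at 22.9 and 33.2 CPM in endothelial-like and 684 and 793 CPM in fibroblast-like barcodes. Of the fibroblast markers that set the classes, only Pcolce kept a larger part of its fibroblast-like level in endothelial-like barcodes than Pdgfra did. The others kept a smaller part, as Col1a1 did. Dcn, for example, was at 93.8 and 64.0 CPM in endothelial-like and 19230 and 17963 CPM in fibroblast-like barcodes. Arterial barcodes had 18.05 and 10.09 CPM of Pdgfra and venous barcodes 1.95 and 2.46 CPM. Whether free fibroblast RNA had a part in this was not tested.

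Pdgfrb, the receptor of PDGF-B, was highest in pericyte-like barcodes and did not separate the libraries there. Its level was 1497 CPM (1255 to 1773) in db/db + salt and 1352 CPM (1152 to 1577) in db/+, a CPM ratio of 1.11 (0.874 to 1.40). Single pericyte-like barcodes held 0 to 15 UMIs with a median of 5.5 in db/db + salt, and 0 to 13 UMIs with a median of 5 in db/+, so the ranges overlapped almost wholly. Smooth muscle-like barcodes had 381 CPM (264 to 533) and 390 CPM (241 to 596), below the pericyte-like level in both libraries. Fibroblast-like barcodes had 68.4 CPM (64.0 to 73.1) and 67.5 CPM (62.8 to 72.4), and endothelial-like barcodes 1.19 and 1.12 CPM.

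Both receptors were detected together in 49.4% of fibroblast-like barcodes in db/db + salt and 41.2% in db/+, and Pdgfrb alone in 1.90% and 3.15%. Median depths were 11979 and 9489 UMIs, and these shares were not taken at equal depth. In pericyte-like barcodes 21 of 22 and 30 of 31 held Pdgfrb without Pdgfra. Fibroblast-like barcodes carried Pdgfrb from 41.4 and 37.3 CPM in an adventitial subcluster to 105 CPM in db/db + salt, in the Wif1 and Prg4 subcluster, and 89.8 CPM in db/+, in the Igfbp3 and Fgl2 subcluster. Its summed level differed little between the libraries, with a CPM ratio of 1.01 (0.919 to 1.12).

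Pdgfrb was higher in db/db + salt in both classes that passed the endothelial list and 1 mural list. Endothelial and pericyte barcodes had 329 CPM (290.4 to 371) in db/db + salt and 241 CPM (217 to 266) in db/+, a CPM ratio of 1.37 (1.16 to 1.60). The pericyte markers summed to 3129 and 2684 CPM in the same barcodes, and the part of this difference in the result was not tested. Endothelial and smooth muscle barcodes had 187 CPM (160.2 to 218) and 123 CPM (99.3 to 151), a CPM ratio of 1.52 (1.17 to 1.98), beside smooth muscle markers at 8812 and 8216 CPM and pericyte markers at 1281 and 1106 CPM. In 13 and 21 barcodes that passed the 2 mural lists equally it was at 194 and 230.1 CPM, a ratio of 0.843 (0.564 to 1.24), and in 46 and 41 barcodes with 3 or more lists at 254 and 268 CPM, a ratio of 0.945 (0.782 to 1.14). Per 100 Rgs5 UMIs, endothelial and pericyte barcodes held 3.69 (3.25 to 4.17) Pdgfrb UMIs in db/db + salt and 3.02 (2.72 to 3.34) in db/+. Endothelial and smooth muscle barcodes held 2.26 (1.93 to 2.63) and 1.48 (1.20 to 1.82). Pericyte-like barcodes held 8.44 and 8.99, and smooth muscle-like barcodes 3.75 and 2.46. The parts of a larger mural share of the RNA in a barcode and of more Pdgfrb per mural cell were not tested.

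**Figure D4:**
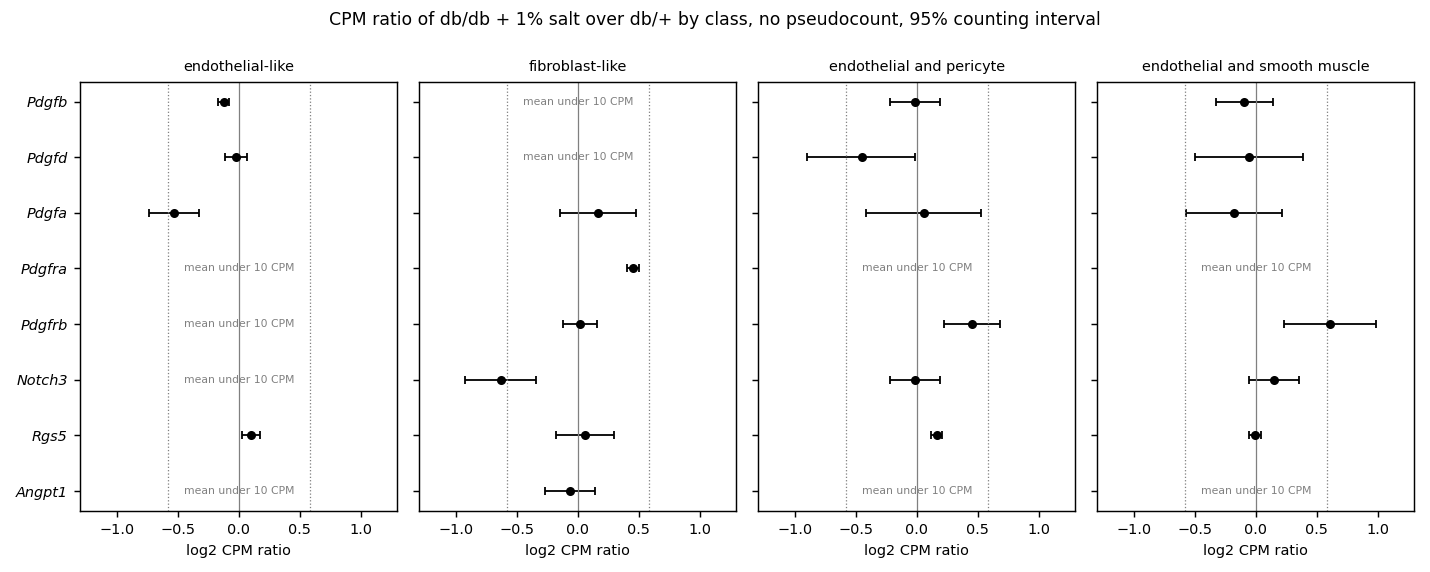
CPM ratio of db/db + salt over db/+ on a log2 axis for each gene in 4 classes, with 95% counting intervals and no added CPM; dotted lines mark 1.5-fold. Pdgfra in fibroblast-like barcodes and Pdgfrb in the 2 mixed classes shown lie right of 0, and Pdgfa in endothelial-like and Notch3 in fibroblast-like barcodes lie left of 0.

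Notch3, the mural Notch receptor, was at 1073 CPM (869 to 1310) in db/db + salt and 910 CPM (747 to 1097) in db/+ pericyte-like barcodes, from 96 and 109 UMIs, with 0 to 12 UMIs per barcode in each library and medians of 4 and 3. Smooth muscle-like barcodes had 572 CPM (426 to 752) and 1021 CPM (769 to 1329), a CPM ratio of 0.560 (0.375 to 0.835) from 51 and 55 UMIs in 16 and 12 barcodes. The composition of these small groups differed: smooth muscle markers summed to 41894 CPM in db/db + salt and 21891 CPM in db/+, and pericyte markers to 1872 and 3732 CPM. Among the other smooth muscle-like values, Rgs5 was at 10154 and 15856 CPM. In endothelial and smooth muscle barcodes, a larger set, Notch3 was at 488 and 441 CPM with a CPM ratio of 1.11 (0.959 to 1.28).

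Fibroblast-like barcodes held a low level of Notch3, 13.3 CPM (11.4 to 15.5) in db/db + salt and 20.7 CPM (18.1 to 23.5) in db/+, a CPM ratio of 0.646 (0.527 to 0.789). In db/db + salt it was highest in a subcluster led by Ifitm1 and Hsd11b1, at 35.7 and 47.6 CPM, followed by the Idi1 subcluster at 24.5 and 37.3 CPM. In db/+ it was highest in one led by Nmb and Gsta3, at 23.8 and 51.9 CPM. It was at 2.28 and 2.81 CPM in the Wif1 and Prg4 subcluster. The Cxcl9 subcluster, with 12 barcodes in db/db + salt and 271 in db/+, held 2 and 91 Notch3 UMIs, at 13.5 and 33.4 CPM. This subcluster added to the class level almost only in db/+. Notch3 was higher in db/db + salt in 2 of the 11 subclusters with at least 10 barcodes per library, and lower in the others. The 2 were at 7.57 and 6.71 CPM and at 2.18 and 1.96 CPM. In fibroblast-like barcodes pericyte markers summed to 170 CPM in db/db + salt and 166 CPM in db/+, and smooth muscle markers to 123 and 174 CPM. Whether smooth muscle RNA moved with Notch3 was not tested. Of the 8639 genes, 162 had a lower log2 ratio than the -0.39 of Notch3. Over 12 alternative settings this log2 ratio ran from -0.60 to -0.16.

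Rgs5 was found in every pericyte-like barcode, with 16 to 144 UMIs and a median of 71 in db/db + salt, and 8 to 214 UMIs and a median of 50 in db/+. The class level was 17745 CPM (16883 to 18640) in db/db + salt and 15047 CPM (14361 to 15758) in db/+, and the ranges over barcodes overlapped. Mixed barcodes had 8911 and 7966 CPM with the pericyte list and 8271 and 8296 CPM with the smooth muscle list. Pericyte-like barcodes held 6.05 Notch3 UMIs per 100 Rgs5 UMIs in db/db + salt and 6.05 in db/+.

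Rgs5 was also present in endothelial-like barcodes, at 153 CPM (147 to 159) in db/db + salt and 143 CPM (138 to 148) in db/+. A UMI was found in 22.7% and 19.7% of them, against 9.49% and 8.01% of the deeper fibroblast-like barcodes. Thinned to 1500 UMIs, the shares were 9.58% and 9.43% in endothelial-like barcodes and 2.68% and 1.82% in fibroblast-like barcodes. Endothelial-like barcodes held 1.29 and 1.23 Notch3 UMIs per 100 Rgs5 UMIs, lower than the 6.05 of pericyte-like barcodes in both libraries. In the 2013 and 2454 endothelial-like barcodes with no UMI of any pericyte or smooth muscle marker, Rgs5 was at 80.4 and 83.7 CPM, and in the other 630 and 700 at 297 and 278 CPM.

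By subtype Rgs5 was highest in arterial barcodes, at 335 CPM (311 to 360) in db/db + salt and 512 CPM (481 to 545) in db/+, a CPM ratio of 0.653 (0.593 to 0.720). Capillary barcodes had 191 and 142 CPM, a ratio of 1.35 (1.22 to 1.49), angiogenic barcodes 51.2 and 80.5 CPM, and venous barcodes 63.6 and 32.0 CPM, a ratio of 1.99 (1.54 to 2.58). Lymphatic barcodes held 1 Rgs5 UMI in each library. The angiogenic ratio was 0.636 (0.513 to 0.785). Mural markers summed to 86.5 CPM in db/db + salt and 111 CPM in db/+ arterial barcodes and to 34.1 and 24.9 CPM in venous barcodes, the same direction as Rgs5. They summed to 42.1 and 41.6 CPM in capillary barcodes, and to 63.5 and 44.4 CPM in angiogenic barcodes, where Rgs5 went the other way. Without barcodes that held a mural marker UMI, the arterial ratio was 0.583 (0.475 to 0.713). The intervals of the other subtypes then included 1, with a capillary ratio of 1.05 (0.898 to 1.23), an angiogenic ratio of 0.795 (0.575 to 1.08) and a venous ratio of 1.04 (0.743 to 1.45). By share of barcodes with an Rgs5 UMI, db/db + salt was higher in arterial (33.0% against 27.4%) and angiogenic barcodes (23.8% against 19.5%), opposite to the CPM. Capillary (28.3% against 23.7%) and venous shares (20.7% against 14.7%) followed the CPM, and all these intervals met. With subtypes taken by their number of markers, the arterial ratio was 0.752 (0.669 to 0.846). The venous ratio was then 1.07 (0.287 to 3.44), from 5 and 10 UMIs.

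In fibroblast-like barcodes Rgs5 was at 24.8 CPM in db/db + salt and 23.8 CPM in db/+, and most of it came from the Wif1 and Prg4 subcluster. There it was at 282 CPM (248 to 319) and 273 CPM (236 to 314), with a UMI in 60.0% and 54.0% of barcodes, and this subcluster held 76.9% and 71.3% of the Rgs5 UMIs of its class. Elsewhere the subcluster with the next highest level, led by Igfbp3 and Fgl2, had 22.4 and 15.8 CPM. The pattern was alike in both libraries.

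Angpt1 was found in fibroblast-like barcodes, at 31.6 CPM (28.6 to 34.8) in db/db + salt and 33.0 CPM (29.8 to 36.5) in db/+, with a UMI in 23.5% and 22.8% of barcodes. It held 0 UMIs in pericyte-like and smooth muscle-like barcodes of both libraries. With 3 counts worth 33.5 and 25.0 CPM in pericyte-like barcodes, a level like that of fibroblasts was at the edge of what could be detected. The larger set of endothelial and pericyte barcodes held 2 UMIs in db/db + salt and 3 in db/+, at 2.49 CPM (0.302 to 8.999) and 1.87 CPM (0.386 to 5.47). Endothelial and smooth muscle barcodes held 6 and 8 UMIs, at 6.57 CPM (2.41 to 14.3) and 10.6 CPM (4.57 to 20.9), with a UMI in 10.2% and 9.84% of barcodes. Among fibroblast-like subclusters the Igfbp3 and Fgl2 subcluster had 63.5 and 80.1 CPM, the Ifitm1 and Hsd11b1 subcluster 59.2 and 72.2 CPM and the Wif1 and Prg4 subcluster 69.6 CPM (53.3 to 89.5) and 38.0 CPM (25.0 to 55.3). The largest adventitial subcluster had 11.1 CPM (7.42 to 15.9) and 23.8 CPM (16.6 to 32.9), and another had 8.71 and 5.89 CPM. A small arterial cluster of 8 barcodes per library, led by Cytl1, Mgp and Gkn3, held 11 and 4 Angpt1 UMIs.

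**Figure D5:**
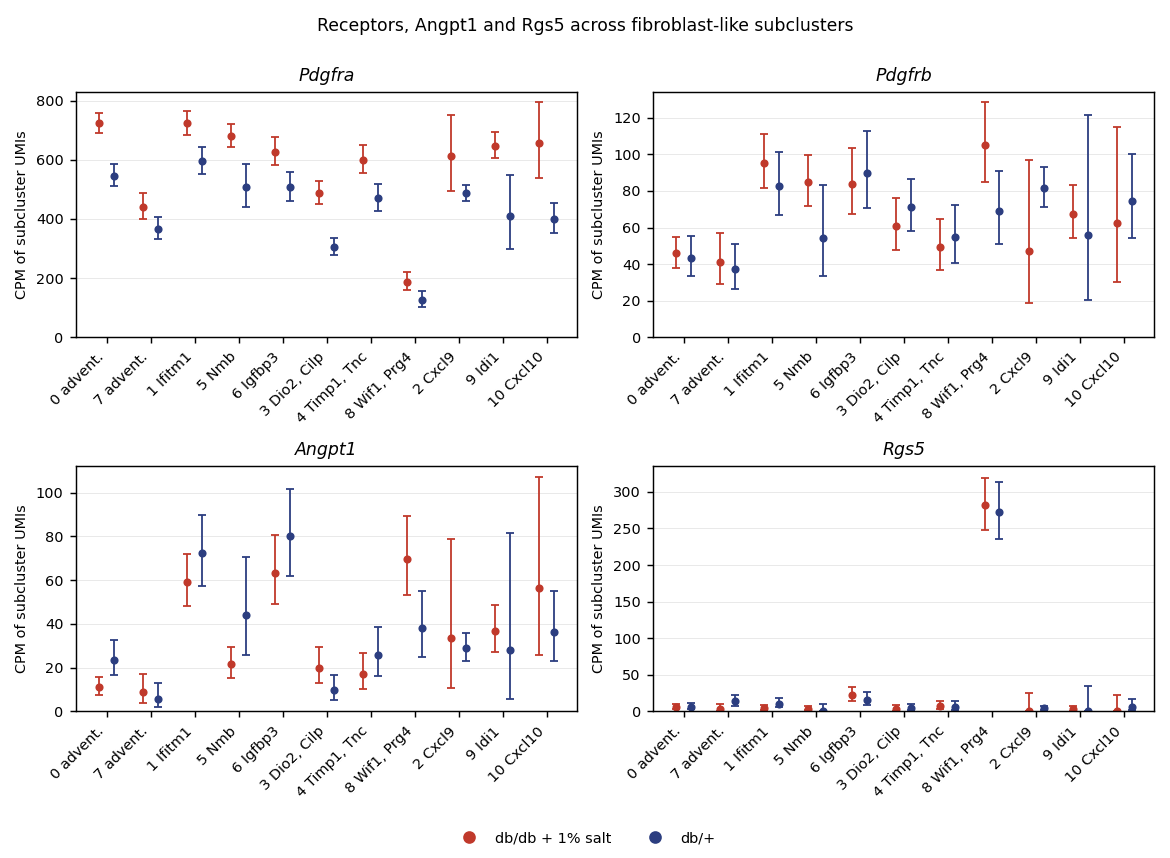
CPM of Pdgfra, Pdgfrb, Angpt1 and Rgs5 in 11 fibroblast-like subclusters, named by number and leading genes or as adventitial (advent.), db/db + salt left of db/+, with exact Poisson 95% intervals. Pdgfra was higher in db/db + salt in each subcluster shown and lowest in the Wif1 and Prg4 subcluster, where Rgs5 reached 282 and 273 CPM.

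Counted by the rule of at least 1.5-fold (log2 ratio with 10 CPM added) and a mean of at least 10 CPM, few of the 8 genes stood apart in the large classes. None of 4 measured members did so in endothelial-like barcodes, where 1.95% of all measured genes did, and none of 6 in fibroblast-like barcodes, where 1.49% did. In endothelial and pericyte barcodes none of 6 did, against 6.83% of all genes, and in endothelial and smooth muscle barcodes none of 6, against 8.7% of all genes. In pericyte-like barcodes 2 of 5 did, Pdgfb higher and Pdgfa lower, and in smooth muscle-like barcodes 4 of 6, Pdgfd higher and Pdgfb, Notch3 and Rgs5 lower. In those 2 classes 49.6% and 56.2% of all genes passed the rule, so the members' counts there say little at this depth. By subtype, 1 of 5 passed in arterial barcodes (Rgs5 lower) against 2.86% of genes, and 2 of 4 in venous barcodes (Rgs5 higher, Pdgfa lower) against 3.68%. None passed of 4 in angiogenic barcodes (1.89%), of 3 in capillary barcodes (1.36%), of 3 in adventitial (1.95%) or of 5 in matrix-activated fibroblast-like barcodes (1.64%). The median log2 ratio of the measured members was -0.07 in endothelial-like barcodes, beside 0.05 over all genes, and 0.03 in fibroblast-like barcodes, beside 0.03.

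Of 68 further genes of the pathway in 6 lists, 50 were measured in endothelial-like and 48 in fibroblast-like barcodes, and none was 1.5-fold apart in either class. Over all measured genes 1.95% and 1.49% were, so a count of 0 is near that share. The log2 ratios of the list genes ran from -0.30 to 0.54 in endothelial-like barcodes, with a median of 0.14. In fibroblast-like barcodes they ran from -0.48 to 0.56, with a median of 0.03. Among partners of the 8 genes, the angiopoietin receptor Tek was at 313 CPM in db/db + salt and 228 CPM in db/+ endothelial-like barcodes (log2 ratio 0.44). Ptprb, a phosphatase that acts on Tek, was at 1422 and 1022 CPM (0.47), and the arterial ephrin ligand Efnb2 at 272 and 195 CPM (0.46). Cxcl12, a chemokine and the highest of its list, was at 2138 and 1832 CPM (0.22). In fibroblast-like barcodes the matrix protein Svep1 was at 108 and 154 CPM (-0.48), the sphingosine 1-phosphate receptor S1pr3 at 103 and 66.6 CPM (0.56), and Lrp1, a receptor that binds PDGF receptor beta, at 999.7 and 1066 CPM (-0.09). Tek, Efnb2, Svep1 and S1pr3 were named in these classes after their values were seen. In endothelial and pericyte barcodes 3 of 58 were higher and none lower, Lrp1 among them at 149 and 79.2 CPM (0.84). In endothelial and smooth muscle barcodes 4 of 58 were higher and 2 lower, among them Efnb2 at 408 and 250.1 CPM (0.69), the growth factor Tgfb2 at 186 and 111 CPM (0.69) and the Notch ligand Dll1 at 12.04 and 44.99 CPM (-1.32). Over all genes 6.83% and 8.7% passed in these 2 classes. Pericyte-like barcodes had 10 of 52 higher and 10 lower, where 49.6% of all genes passed. They included Cxcl12 with 62 and 36 UMIs (1.18) and the endothelin receptor Ednrb with 22 and 60 UMIs (-0.997). Smooth muscle-like barcodes had 16 of 51 higher and 18 lower, where 56.2% of all genes passed, among them S1pr3 with 46 and 11 UMIs (1.29) and Rgs4 with 32 and 39 UMIs (-0.99).

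The genes most like each member in level were found over 8 profiles in 2 libraries, 16 points that share libraries and cell types, as Pearson r of log2 CPM among 5469 genes. Pericyte-like and smooth muscle-like barcodes were too few to be among the profiles. Mural levels therefore came only from the mixed barcodes that also carried the endothelial list. Pdgfb was followed most closely by Ppp1r16b and Pcdh1 (r of 0.995 and 0.994), Pdgfd by Rbp7 and Mapk3 (0.988 and 0.988), and Pdgfa, less closely, by Ninj1 and Ccnd2 (0.889 and 0.872). Pdgfra was nearest to Sulf2 and Htra3 (0.992 and 0.991), Pdgfrb to Sept7 and Enpep (0.987 and 0.983), and Notch3 to Higd1b and Itga7 (0.996 and 0.996). Higd1b is 1 of the pericyte markers that set the classes, so its pattern over the profiles was partly fixed beforehand. Rgs5 was nearest to Plekhg2 and Atp1b2 (0.971 and 0.970), and Angpt1 to Dnajb4 and Scara3 (0.964 and 0.960). The points fall into few cell types, so these values describe which genes share a cell type's level.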

How the data were processed

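Non-muscle heart cells were measured in 2 samples, 1 library per group, made with the 10x Genomics 3′ kit per the labels' protocols. The authors deposited UMI counts without normalization, written by Cell Ranger 6.0.2 per the file headers; per the submitters' processing notes, Seurat and the GRCm38 (mm10) build were also named, with no account of what Seurat did. Ensembl identifiers, gene symbols and barcodes were deposited as text; the 71 entries that share a symbol were left out of clusters and of the genes counted.

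Barcodes with at least 500 genes and at most 10% mitochondrial UMIs were kept, and doublets called per library by Scrublet in scanpy 1.11.5 (50 in db/db + salt, 64 in db/+) were removed. Scrublet left many barcodes that carry markers of more than 1 type, so classes were set by marker UMIs without the 8 genes, and barcodes that passed 2 lists form classes of their own. Subtypes came from Leiden clustering (2000 variable genes, 30 principal components, 20 neighbours, resolution 1) and were named where at least 3 markers were among the top 30 genes. UMIs were summed per class and library. Exact Poisson intervals were used for summed UMIs and Clopper-Pearson intervals for shares. The named genes are the 8 members, at most 4 genes per pathway list and class with the largest ratio or the highest level, and the 3 most alike genes, of which at most 2 are printed. Members and lists were chosen with earlier results of these data known. The 1.5-fold rule was tried on simulated Poisson counts without variation between barcodes, animals or libraries. That trial therefore says nothing on such variation. TMM factors came from edgeR 4.0.16. Alternatives covered pseudocounts, scaling, filters, class rules and thinning.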

Additional observations from a re-analysis of the deposited data

Results flagged for a closer look

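The CPM of Rgs5 differed between the libraries in opposite directions in 2 endothelial subtypes, with a log2 ratio of -0.60 in arterial barcodes and 0.81 in venous barcodes. The share of barcodes with an Rgs5 UMI was higher in db/db + salt in both. It was 33.0% against 27.4% in arterial and 20.7% against 14.7% in venous barcodes. With subtypes taken by their number of markers, the log2 ratio was -0.40 in arterial and 0.07 in venous barcodes. The difference between the subtypes was not tested, since each group has 1 library. Without barcodes that held a mural marker UMI, the log2 ratio was -0.73 in arterial and 0.04 in venous barcodes.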

How the results depend on the processing

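Of 346 log2 ratios recomputed over 34 results, 310 kept their sign and 303 moved by less than the counting interval allows. The count of members at least 1.5-fold apart was 1 in fibroblast-like barcodes with 1 CPM added, against 0. In pericyte-like barcodes it was 2, and became 1 with 50 CPM added, a mean of at least 50 CPM, a stricter marker rule or thinning to 1500 UMIs, and 0 with classes taken by clusters. In smooth muscle-like barcodes it was 4, and became 2 with a mean of at least 50 CPM and 1 with up to 20% mitochondrial UMIs, with clusters or with thinning. It was 1 in endothelial and pericyte barcodes under the stricter rule or thinning, and 1 in endothelial and smooth muscle barcodes with 1 CPM added or thinning, against 0 in both. In venous barcodes it was 2, and became 0 with 50 CPM added or a mean of at least 50 CPM, and 1 without mural marker barcodes, an alternative chosen after seeing the data. The share of all genes passing under each alternative is not given here. These counts alone therefore do not set the members apart from other genes. Pdgfra in fibroblast-like barcodes was 0.36 in barcodes with no mural marker UMI. Pdgfa in venous barcodes was -0.44 with 50 CPM added and 1.12 with subtypes taken by markers, where 1 of 29 db/db + salt barcodes held all 13 UMIs. With classes by clusters, Pdgfb in pericyte-like barcodes was -0.18, and Pdgfd and Notch3 in smooth muscle-like barcodes were -0.40 and 0.011. Rgs5 in smooth muscle-like barcodes was 0.0063 with up to 20% mitochondrial UMIs and 0.18 with thinning. The cause of these shifts was not tested. TMM scaling shifted smooth muscle-like values by 0.14. No paired analysis was possible because each group has 1 library. Few mural barcodes limit the precision of all mural values.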
